A study of Mus musculus with 36 samples.

Results

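Ly6a, Ly6c1, Ly6c2, Ly6d and Ly6e are 5 genes of the mouse Ly6 family, named as a list among the 31102 genes counted in 30 single-cell RNA libraries of the submandibular salivary gland. They were chosen by their measured RNA levels across the cell types and glands of these same libraries, so those levels are given here as a description, and the tests between genotypes below are not independent of that choice. Each was measured as unique molecular identifiers (UMIs), short tags that count captured RNA molecules, in 26 Drop-seq glands and in 4 glands profiled by CITE-seq, an assay that also counts antibodies bound to each cell. All 5 genes had UMIs in 28 of the 30 libraries, and the other 2, control P40 replicate 5 and control P90 replicate 3, lacked Ly6c2.

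Control glands carried a Cre recombinase driven by the keratin 14 promoter, which is active in basal epithelial cells, and an EYFP reporter in the Rosa26 locus that Cre switches on. Double-mutant glands carried these and, in the Cre-expressing lineage, a gain-of-function allele of beta-catenin and a loss-of-function of the Bmp receptor gene Bmpr1a. All mice had a C57BL/6 background, and 1 gland gave 1 library. Drop-seq covered 6 control and 7 double-mutant glands at postnatal day 40 (P40) and again 6 and 7 at P90, with males and females in both genotypes. CITE-seq covered 2 control glands, 1 labelled male and 1 female, and 2 double-mutant glands labelled female, all at P70. A bulk RNA-seq library of 1 control gland at P70 and 1 of a double-mutant gland at P100 were used for levels per exon length.

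After filtering, 23346 of 26987 Drop-seq barcodes and 2535 of 3095 CITE-seq barcodes were kept, and no pair of libraries shared more than 1 barcode among kept cells. Total UMIs per gland ranged from 777537 to 7013325 in Drop-seq and from 1136442 to 2459694 in CITE-seq. The sex-linked RNAs of 2 double-mutant Drop-seq libraries, P40 replicate 1 and P90 replicate 5, went against their labels, and all 4 CITE-seq libraries held 151 to 193 UMIs of Xist together with 14 to 71 of Y-linked genes. Control P70 replicate 1, the only CITE-seq gland labelled male, held more UMIs of Xist (151) than of Y-linked genes (60), against its label. Among control glands, no batch held both stages, so stage and batch cannot be told apart there.

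Ly6 proteins are small surface proteins with a finger-like fold that are tethered to the outer membrane by a lipid (GPI) anchor. Ly6a encodes Sca-1, a marker used to sort stem and progenitor cells in several mouse tissues. Ly6c1 and Ly6c2 encode the Ly6C antigen, known from monocytes, endothelium and some T and plasma cells, and the common Ly6C antibody recognises both products. Ly6d marks lymphoid progenitors and stratified or basal epithelium, whereas Ly6e is widely expressed, is induced by interferon and restricts the entry of several viruses. The antibody target name Ly6A/E refers to alleles of the Ly6a product and not to the gene Ly6e.

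The 5 genes lie together on mouse chromosome 15 in the genome build GRCm38 (mm10), with annotation from GENCODE. Ly6d spans chr15:74762056-74763620 and Ly6e chr15:74955051-74959905, followed by Ly6a at chr15:74994877-74998031, Ly6c1 at chr15:75044018-75048830 and Ly6c2 at chr15:75108158-75111970. Ly6e is on the plus strand and the other 4 are on the minus strand. Ly6c1 and Ly6c2 are near-identical copies, with 384 of 393 coding bases the same in the reference transcripts Ly6c1-201 and Ly6c2-201 (97.7%). The first 120 coding bases of each, read 5′ to 3′ from the reference transcripts, hold 6 of the 9 differing bases, shown in capitals. They are printed to show how alike the copies are. Over the whole transcripts 41 aligned positions differed, and a read can be given to either gene only where it covers one of these.

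Ly6c1: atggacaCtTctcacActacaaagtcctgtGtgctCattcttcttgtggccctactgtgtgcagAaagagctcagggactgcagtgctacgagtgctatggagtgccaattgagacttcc

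Ly6c2: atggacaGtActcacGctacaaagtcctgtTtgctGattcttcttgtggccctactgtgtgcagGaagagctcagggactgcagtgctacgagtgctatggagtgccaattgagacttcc

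Drop-seq reads start from the 3′ end of a transcript, where the copies were less alike: 93.8% of aligned positions matched over the last 300 bases and 85% over the last 100. The longest identical run within the last 300 bases was 124 bases, so the split of reads between Ly6c1 and Ly6c2 is uncertain for reads inside such runs. Ly6a shared 82.6% of aligned coding positions with Ly6c1 and 82.1% with Ly6c2. Pairs among Ly6a, Ly6c1, Ly6d and Ly6e that included Ly6d or Ly6e shared 51.9% to 56.3%. Ly6c2 was not aligned with Ly6d or Ly6e.

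Each of the 5 genes had its own distribution over the cell populations of the gland. Ly6c1 was concentrated in endothelial-like cells and Ly6c2 in immunoglobulin (Ig)-producing cells, Ly6d was highest in basal-like cells, Ly6a was spread over endothelial, stromal and epithelial populations, and Ly6e was found nearly everywhere. Populations were clusters of cells computed with all Ly6 family genes held out and named from other marker genes. Endothelial-like cells, for example, had all 12 endothelial markers above the rest of the cells, with a summed level of 6231 CPM (UMIs of a gene scaled to the same UMI total) against 15.9. Ig-producing cells held 509400 CPM of their marker transcripts, mostly immunoglobulin, so any other gene is diluted there. Of 9 acinar markers, 7 were higher in acinar-like cells and Dmbt1 was at 0. Levels below are means over Drop-seq glands with at least 10 cells of the population, and n is the number of glands. The genotypes of these glands differ between populations. Endothelial-like cells came from 8 control and 14 double-mutant glands and fibroblast-like cells from 2 and 12. Ig-producing cells came from double-mutant glands only. Genotype and population are therefore partly mixed in comparisons between populations.

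Ly6c1 reached 1850 ± 985 CPM (SD, n = 22) in endothelial-like cells. The next population, fibroblast-like cells, had 116 ± 132 CPM (SD, n = 14), and this was the only step between neighbouring populations, for any of the 5 genes, at which the mean ± SD ranges did not overlap. Every other pair of neighbours in each gene's order lay within its spread. Endothelial-like cells made up 2.94% of control and 5.59% of double-mutant cells but held 73.3% and 83.3% of all Ly6c1 UMIs. A Ly6c1 UMI was found in 66.4% of endothelial-like cells, which had a median of 729 UMIs, and in 0.706% of acinar-like cells, which had a median of 3914. After each cell was thinned to 500 UMIs, these shares were 56.1% and 0.112%. Acinar cells, which secrete saliva proteins and are not expected to carry Ly6C, give a background level for free RNA in cells with many UMIs. Free RNA may make up a larger part of cells with fewer UMIs. This level can therefore be too low for them, also after thinning.

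Ly6c2 had 75 UMIs in all control and 407 in all double-mutant Drop-seq cells. Its level was 866 ± 959 CPM (SD, n = 6) in Ig-producing cells, with single glands from 192 to 2420 CPM. T/NK-like cells followed with 56.1 CPM and endothelial-like cells with 53.4 CPM. Ig-producing cells were 0.112% of control cells and 1.19% of double-mutant cells, yet they held 52% and 71.3% of the Ly6c2 UMIs. A Ly6c2 UMI was present in 45.1% of Ig-producing cells (median 1421 UMIs; 30.1% when thinned) and in 0.0277% of acinar-like cells (0 of 7127 when thinned, which allows up to 0.0421%). Macrophage-like cells, the class closest to the monocytes for which Ly6C is a standard marker, had only 10.9 CPM of Ly6c2 and 14.2 CPM of Ly6c1.

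**Figure D1:**
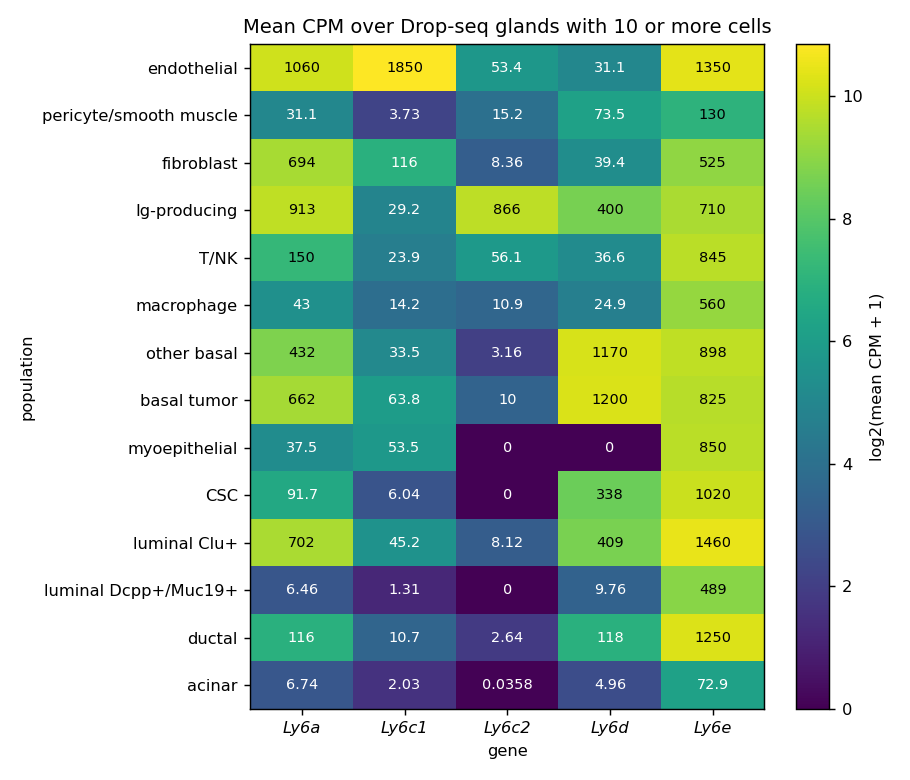
Mean level of the 5 genes (columns) in 14 named populations (rows), with the mean CPM over Drop-seq glands with 10 or more cells printed in each field and its colour giving log2(mean CPM + 1). Ly6c1 stands out in endothelial-like cells (mean 1850 CPM), Ly6c2 in Ig-producing cells (866 CPM) and Ly6d in the basal populations (1170 to 1200 CPM), whereas Ly6e is high in most populations.

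Ly6d, a marker of squamous and basal epithelium, was highest in the 2 basal populations. Cells of the basal tumor-like cluster, of which 4 of 589 cells came from control glands, had 1200 ± 584 CPM (SD, n = 9), and the other basal-like cells had 1170 ± 601 CPM (SD, n = 21). Luminal Clu+ cells had 409 CPM, Ig-producing cells 400 CPM, and CSC-like cells, named after the cancer stem cell signature of the study, 338 CPM. Endothelial-like and fibroblast-like cells were low, at 31.1 and 39.4 CPM, and 0 of 182 myoepithelial-like cells had a Ly6d UMI, which allows up to 1.65% of cells with a UMI (counting error only) and sets no limit on cells that express the gene below detection. A Ly6d UMI was detected in 50.5% of other basal-like cells (median 884 UMIs; 38.6% when thinned) against 1.12% of acinar-like cells (0.253% when thinned).

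Ly6a had the broadest plateau. Its mean was 1060 ± 568 CPM (SD, n = 22) in endothelial-like cells, 913 CPM in Ig-producing cells, 702 CPM in luminal Clu+ cells, 694 CPM in fibroblast-like cells and 662 CPM in basal tumor-like cells. These 5 populations could not be ranked beyond their spread. All but the endothelial-like mean rest mostly or wholly on double-mutant glands. Luminal Clu+ cells, for example, had 19 Ly6a UMIs in 65 control cells and 784 in 775 double-mutant cells. The next, other basal-like cells, had 432 ± 469 CPM (SD, n = 21), a mean over control glands at 101 CPM and double-mutant glands at 681 CPM, the latter as high as the plateau. T/NK-like cells (150 CPM), ductal cells (116 CPM), CSC-like cells (91.7 CPM) and macrophage-like cells (43 CPM) were lower, and acinar-like cells had 6.74 CPM. A Ly6a UMI was seen in 53.2% of endothelial-like cells (43.8% when thinned) and 1.41% of acinar-like cells (0.253% when thinned).

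Ly6e averaged over 500 CPM in 11 of the 14 named populations, against 489 CPM in luminal Dcpp+/Muc19+ cells, 130 CPM in pericyte/smooth muscle-like cells and 72.9 CPM in acinar-like cells. Luminal Clu+ cells (1460 CPM), endothelial-like cells (1350 ± 639 CPM, SD, n = 22), ductal cells (1250 CPM) and CSC-like cells (1020 CPM) had the most. Macrophage-like cells had 560 CPM and fibroblast-like cells 525 CPM. Ductal cells, being numerous, held 47.8% of the Ly6e UMIs of control cells and 25.1% of those of double-mutant cells.

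A cluster of 2135 Drop-seq cells led by Klk1, a duct kallikrein, did not meet the marker criteria for a name and is left unnamed. Its pooled levels were 374 CPM of Ly6a, 338 CPM of Ly6d and 1190 CPM of Ly6e. All unnamed clusters together held 35.7% of the Ly6a UMIs of control cells and 18.4% of those of double-mutant cells, so the named populations do not account for all Ly6a signal.

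**Figure D2:**
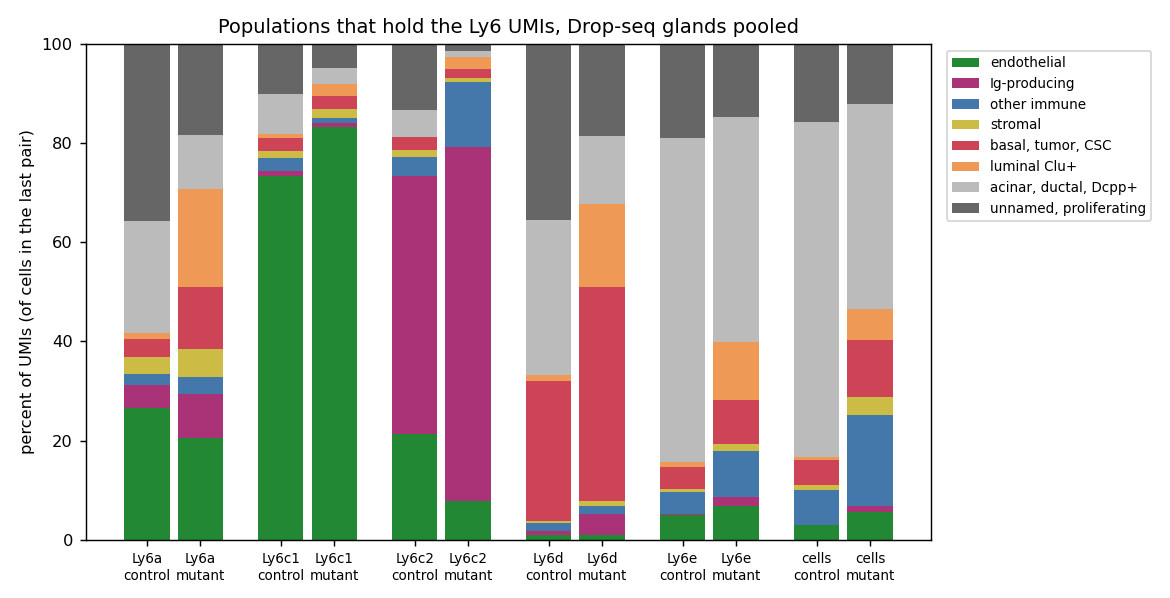
Percent of each gene's Drop-seq UMIs (y axis) by population (colours), with glands pooled by genotype in a pair of bars per gene; the last pair gives the percent of cells. Endothelial-like cells hold 73.3% and 83.3% of Ly6c1 and Ig-producing cells 52% and 71.3% of Ly6c2, while Ly6a, Ly6d and Ly6e are divided among many populations.

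The genes whose levels ran most alike those of each member over 14 populations were found by Pearson's r of log2(mean CPM + 1) among 7284 genes. The populations share libraries and differ in depth, so r is a description only. For Ly6c1 they were Zbtb46 (0.855), Cd300lg (0.851) and Sdpr (0.85). For Ly6c2 they were Lax1 (0.874), Cd69 (0.861) and Gimap6 (0.847). Ly6d ran closest to Gm4468 (0.869), Etv6 (0.863) and Map3k1 (0.859), and Ly6a to Smurf2 (0.889), Erc1 (0.862) and Smarcc2 (0.855). Ly6e ran closest to H2-T23 (0.893), Rnf6 (0.888) and AI314180 (0.878).

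Double-mutant glands were next compared with controls at the level of the whole gland. Ly6a and Ly6c2 rose in double-mutant Drop-seq glands, and the other 3 members did not pass the threshold. In these sums over all cells, more cells of a type and more RNA per cell cannot be told apart. All genes were fitted with edgeR's quasi-likelihood test with sex and stage as covariates and Benjamini-Hochberg adjustment over 8768 genes. Of all genes tested, 21.6% were called and 14% were called higher, so 2 of 5 members called higher stands against a broad background.

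Ly6a had a lowest, median and highest level of 11.7, 25.2 and 133 CPM in control P40 glands and of 23.8, 45.1 and 115 CPM in control P90 glands. In double-mutant glands they were 61.3, 127 and 317 CPM at P40 and 62.4, 196 and 564 CPM at P90. The ranges overlapped, but the lowest double-mutant gland was above both control medians. Mean levels were 54.7 ± 42.6 CPM (SD, n = 12) and 191 ± 140 CPM (SD, n = 14). The log2 fold change was 1.18 ± 0.26 (SE, edgeR, adjusted p = 0.00394), and with batch as a term over the 5 batches that held both genotypes it was 1.20 (adjusted p = 0.0146).

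Ly6c2 ran from 0 to 2.15 CPM with a median of 0.338 in control P40 glands and from 0 to 8.6 CPM with a median of 5.21 in control P90 glands. Double-mutant glands had 2.03, 16.6 and 28.5 CPM at P40 and 0.56, 13 and 26.2 CPM at P90. The P40 ranges overlapped only between 2.03 and 2.15 CPM. The log2 fold change over both stages was 2.31 ± 0.55 (SE, edgeR, adjusted p = 0.00603). It was 3.08 (adjusted p = 0.00721) with batch as a term. The share of Ig-producing cells, the main source of Ly6c2, moved with it: the mean share per gland was 0.114% in controls and 1.24% in double-mutant glands. Its part in the result was not tested.

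Ly6c1 had 4.91, 16.3 and 111 CPM (lowest, median, highest) in control P40 glands and 2.98, 21.6 and 66.7 CPM in control P90 glands. Double-mutant glands had 33.8, 65.3 and 204 CPM at P40 and 16.3, 44.4 and 116 CPM at P90. The groups overlapped widely at both stages. The log2 difference was 0.80 ± 0.33 (SE) and did not pass the threshold (edgeR, adjusted p = 0.0792), nor did it with batch as a term (0.94, adjusted p = 0.158). DESeq2 called it (0.84, adjusted p = 0.0475), as did edgeR without a filter on low counts (0.71, adjusted p = 0.0263). The mean share of endothelial-like cells was 2.91 ± 2.75% in control and 5.81 ± 3.33% in double-mutant glands, and its part in the Ly6c1 difference was not tested.

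Ly6d levels averaged 58.1 ± 39.6 CPM (SD, n = 12) in control and 122 ± 80.7 CPM (SD, n = 14) in double-mutant glands. Single glands ran from 17.8 to 144 CPM and from 29.7 to 263 CPM, so most of the ranges overlapped. The log2 difference after TMM scaling, which aligns the bulk of genes between libraries, was 0.40 ± 0.28 (SE, edgeR, adjusted p = 0.304). Ly6e averaged 355 ± 162 and 542 ± 215 CPM (SD), with a log2 difference of 0.05 ± 0.20 (SE, edgeR, adjusted p = 0.869).

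The CPM means of Ly6d and Ly6e lie further apart than their fitted differences, which depend on the scaling. With library size as the only scaling, the median of all genes shifted by 0.632 on the log2 scale, and 4706 genes were called higher and 46 lower, against 1224 and 670 with TMM. Under that scaling the log2 differences were 1.85 for Ly6a, 1.40 for Ly6c1, 2.87 for Ly6c2, 1.02 for Ly6d and 0.68 for Ly6e, and the edgeR calls of Ly6c1 (adjusted p = 0.0148), Ly6d (0.0267) and Ly6e (0.0292) then passed. The Ly6e value is close to the shift of all genes.

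**Figure D3:**
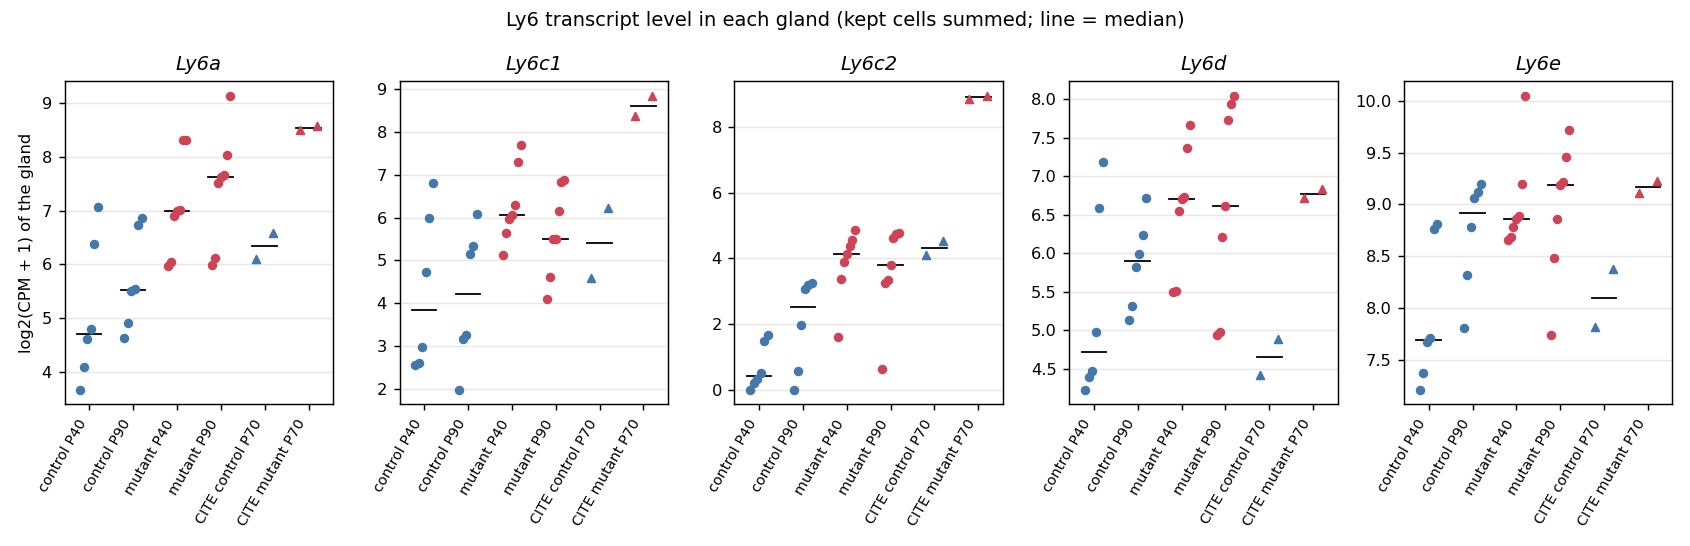
Level of the 5 genes as log2(CPM + 1) (y axis, which does not start at 0 in every panel) by genotype and stage, with 1 point per gland (circles Drop-seq, triangles CITE-seq) and a line at each group's median. In CPM, Ly6a lies at 61.3 or more in all 14 double-mutant Drop-seq glands, and Ly6c2 at 8.6 or less in all 12 control Drop-seq glands.

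The genotypes were also compared within each stage. At P40, where 1.37% of 10940 genes were called (1.31% higher), Ly6c2 was the 1 member called, with a log2 fold change of 3.88 ± 0.75 (SE, edgeR, adjusted p = 0.0129). Ly6a differed by 1.06 on the log2 scale at P40 without passing (adjusted p = 0.11). At P90, where 8.15% of genes were called (5.46% higher), Ly6a was the 1 member called, at 1.20 ± 0.37 (SE, edgeR, adjusted p = 0.0429). Without the 2 libraries whose sex genes went against their labels, the P90 value was 1.07 and no longer passed (adjusted p = 0.115). Ly6c2 differed by 1.07 at P90 (adjusted p = 0.295).

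These pairs of results do not show that the effect of genotype changed with stage. The test of that difference called 1 of 10940 genes (0.00914%) and no member. It was largest for Ly6c2, at -2.81 ± 0.99 on the log2 scale (SE, edgeR, unadjusted p = 0.00897, adjusted p = 0.704).

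No member passed the test between stages. Between P40 and P90 in double-mutant glands 0 of 10940 genes passed by edgeR (0%), with 1063 at an unadjusted p under 0.05 and 37 called by DESeq2. The largest difference among members was that of Ly6c1, -0.89 ± 0.44 (SE, edgeR, adjusted p = 0.536). In control glands 5.06% of genes were called, and Ly6c2 came closest among members, at 2.42 ± 0.81 (SE, edgeR, adjusted p = 0.0836; DESeq2, adjusted p = 0.0331). There, stage cannot be told apart from batch.

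Whether the whole-gland differences were seen within a population was addressed by summing UMIs per gland and population. Within basal-like cells, the lineage that the keratin 14 promoter marks, Ly6a rose in double-mutant glands. Its level was 103 ± 72.9 CPM (SD, n = 9) in control and 646 ± 384 CPM (SD, n = 13) in double-mutant glands. The lowest, median and highest values were 0, 119 and 220 CPM in control and 209, 550 and 1330 CPM in double-mutant glands. The ranges overlapped only between 209 and 220 CPM. The log2 fold change was 2.43 ± 0.36 (SE, edgeR, adjusted p = 0.000141), in a fit that called 6.7% of 940 genes (5.64% higher).

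The basal tumor-like cluster was made almost wholly of double-mutant cells, so the other basal-like cells were also fitted by themselves, an alternative chosen after seeing the data. In them Ly6a was 101 ± 72.2 CPM (SD, n = 9) in control and 681 ± 489 CPM (SD, n = 12) in double-mutant glands, with a log2 fold change of 2.57 ± 0.42 (SE, edgeR, adjusted p = 0.00129). The share of other basal-like cells with a Ly6a UMI was 9.66% in control and 26% in double-mutant glands, or 5.15% and 18.7% when thinned to 500 UMIs.

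The other members did not pass within basal-like cells. Ly6d, the basal marker, had 185, 715 and 1990 CPM (lowest, median, highest) in control and 687, 1170 and 2270 CPM in double-mutant glands. The control range held most of the double-mutant range, and the log2 difference was 0.41 ± 0.20 (SE, edgeR, adjusted p = 0.213). Ly6e averaged 759 ± 369 and 956 ± 339 CPM (SD), with a log2 difference of 0.11 (edgeR, adjusted p = 0.783).

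Within endothelial-like cells no gene passed by edgeR (0% of 646 genes), with 70 at an unadjusted p under 0.05 and 4 called by DESeq2. Ly6c1 had 271, 1810 and 3220 CPM (lowest, median, highest) in 8 control glands and 736, 1870 and 4830 CPM in 14 double-mutant glands, so the medians nearly coincided. The log2 difference was 0.21 ± 0.22 (SE, edgeR, adjusted p = 0.724). Ly6a averaged 1000 ± 484 and 1100 ± 626 CPM (SD, log2 difference 0.09, adjusted p = 0.924), and Ly6e 1430 ± 671 and 1300 ± 641 CPM (SD, log2 difference -0.16, adjusted p = 0.744).

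Ly6e was the only member with enough UMIs for a fit in the immune populations. In macrophage-like cells, where 10.4% of 1190 genes were called, its log2 difference was 0.00 ± 0.22 (SE, edgeR, adjusted p = 0.992). In T/NK-like cells it was -0.39 ± 0.31 (SE, edgeR, adjusted p = 0.612), in a fit that called 0% of 184 genes, with 17 at an unadjusted p under 0.05 and 7 called by DESeq2. Ly6c2 could not be fitted within Ig-producing cells, since no control gland had 10 of them, and fibroblast-like cells were sufficient in only 2 control glands.

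**Figure D4:**
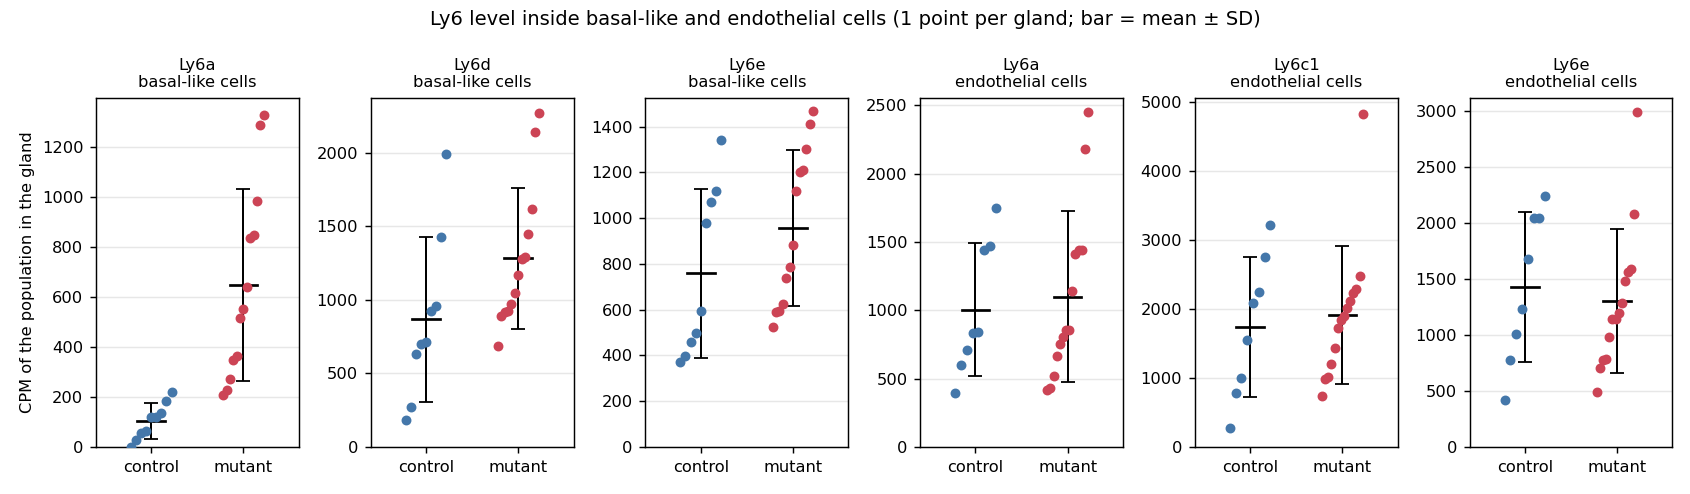
CPM (y axis) of Ly6a, Ly6d and Ly6e within basal-like cells and of Ly6a, Ly6c1 and Ly6e within endothelial-like cells, by genotype, with 1 point per Drop-seq gland and bars for the mean ± SD. Ly6a in basal-like cells runs from 0 to 220 CPM in control and from 209 to 1330 CPM in double-mutant glands, and Ly6c1 in endothelial-like cells has medians of 1810 and 1870 CPM.

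The 4 CITE-seq glands at P70 gave a separate set of animals. Of the 5 members, 4 were called higher in double-mutant glands, in a fit that called 13.7% of 10058 genes and 9.24% as higher. Unlike the Drop-seq fit, this CITE-seq fit had no sex term. The double-mutant glands were labelled female and the control glands male and female, so genotype and sex are partly mixed in these calls. Ly6c2 had 16.3 and 22.3 CPM in the control and 463 and 498 CPM in the double-mutant glands, with a log2 fold change of 3.93 ± 0.30 (SE, edgeR, adjusted p = 0.000471). Ly6c1 had 23.1 and 73.2 CPM against 326 and 456 CPM, a log2 fold change of 2.32 ± 0.47 (SE, edgeR, adjusted p = 0.0212). Neither gene's groups overlapped.

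Ly6a had 67.5 and 95.5 CPM in control and 360 and 382 CPM in double-mutant glands (log2 fold change 1.48 ± 0.28, SE, edgeR, adjusted p = 0.0183). Ly6d had 20.4 and 28.6 CPM against 104 and 113 CPM (1.45 ± 0.29, SE, edgeR, adjusted p = 0.0208). Ly6e had 224 and 332 CPM against 552 and 599 CPM, and did not pass (0.35 ± 0.28, SE, edgeR, adjusted p = 0.433). The calls of Ly6a, Ly6c1 and Ly6d were lost without double-mutant replicate 1, at edgeR adjusted p = 0.0878, 0.0694 and 0.0964. The calls of Ly6a and Ly6d were also lost without control replicate 2 (edgeR, adjusted p = 0.0549 and 0.0807). Ig-producing cells averaged 0.498% of control and 5.39% of double-mutant CITE-seq cells. They held 64% of the Ly6c2 UMIs of control cells and 85.7% of those of double-mutant cells. For Ly6c1 these shares were 0% and 69%, for Ly6a 19.6% and 37.2%, and for Ly6d 8.42% and 47.4%. Endothelial-like cells held 146 Ly6c1 UMIs in the control and 101 in the double-mutant glands. The part of the Ig-producing cells in the 4 calls was not tested. A cluster of 191 cells that was found only in CITE-seq is included in these sums, and without it, a fit chosen after seeing the data, the log2 fold changes were 3.61, 2.04, 1.17 and 1.13 for Ly6c2, Ly6c1, Ly6a and Ly6d, which passed, and 0.04 for Ly6e.

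The 2 assays placed the Ly6c copies differently in Ig-producing cells. Pooled over glands, these cells had 1020 CPM of Ly6c2 and 71.1 CPM of Ly6c1 in Drop-seq, and 3070 CPM of Ly6c2 and 1830 CPM of Ly6c1 in CITE-seq. All 459 Ly6c1 UMIs of Ig-producing CITE-seq cells were in the double-mutant glands, and the 7 such cells of control glands had 48 UMIs of Ly6c2 and 0 of Ly6c1, which allows up to 3 UMIs. Endothelial-like CITE-seq cells had 5060 CPM of Ly6c1 and 533 CPM of Ly6c2. Since the copies are near identical in sequence, the assignment between them is uncertain, and the difference between the assays was not tested.

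The RNA was set against the antibody tag named Ly6C in the same cells. Tag counts are given per 10000 antibody tags of the cell, since total tags per cell differ between populations. In each of the 4 glands, the median Ly6C tag was higher in cells with a Ly6c1 or Ly6c2 UMI than in cells without. The medians with and without were 539 and 28.4 in control replicate 1 and 467 and 24.7 in control replicate 2. In the double-mutant glands they were 68.8 and 13 in replicate 1 and 71.4 and 10.3 in replicate 2. Cells of a gland are not replicates, and 4 pairs are too few for an exact permutation test to reach 0.05, so the values are given without a test.

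The tag was highest in endothelial-like cells, and a population with a similar amount of Ly6c RNA had far less of it. Endothelial-like cells had a median of 381 (interquartile range 132 to 943, 93 cells) and 5590 CPM of Ly6c1 and Ly6c2 together. Ig-producing cells had nearly as much Ly6c RNA, 4900 CPM, with a median tag of 44.3 (interquartile range 0 to 69.4, 69 cells). The control tag mIgG1, an antibody with no target on the cells, had a median of 71.9 in Ig-producing cells, above their Ly6C tag. It was above the Ly6C tag in every population except endothelial-like cells, where it was 42.5. In acinar-like cells, for example, mIgG1 was at 76.6 and Ly6C at 29.8. The mIgG1 tag was 1 of several control antibodies and is not stated to match the Ly6C antibody. Ig-producing cells had a median of 423 antibody tags in all, against 1213 in endothelial-like cells. The part of the lower tag total in this was not tested.

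Acinar-like cells had a median Ly6C tag of 29.8 (interquartile range 11.7 to 53.2) and 2.41 CPM of Ly6c RNA. Fibroblast-like cells, at 36.5 with 715 CPM, and T/NK-like cells, at 23.4 with 338 CPM, had medians inside that range. Macrophage-like cells were below it, at 7.02 (interquartile range 0 to 16.1) with 118 CPM, and their median of 2005 antibody tags in all, against 832 in acinar-like cells, lowers a value per 10000 tags. The tag separated cells by which copy was detected in the same way. The 91 cells with Ly6c1 UMIs only, of which 49 were endothelial-like, had a median of 296. The 95 cells with both, of which 48 were Ig-producing, had a median of 71.2, the 27 with Ly6c2 only 71.4 and the 2322 with neither 19.4.

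**Figure D5:**
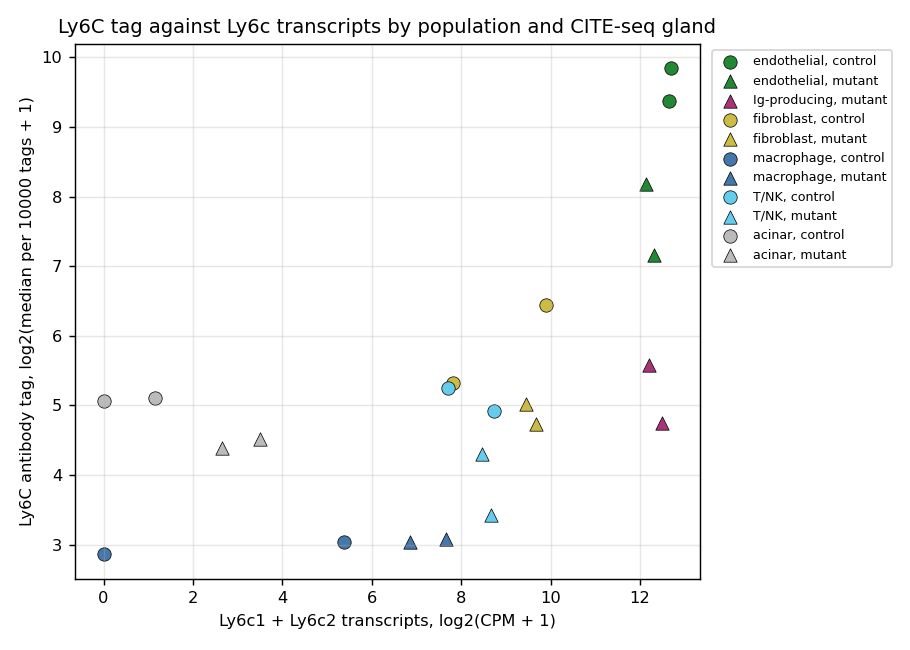
Ly6C antibody tag, as log2 of the median per 10000 tags plus 1 (y axis), against Ly6c1 and Ly6c2 RNA together, as log2(CPM + 1) (x axis), with 1 point per population and CITE-seq gland. Endothelial-like cells lie at the top right, and the Ig-producing cells of the double-mutant glands lie as far right but lower, with median tags of 46.8 and 25.8 per 10000.

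Between genotypes, the share of the Ly6C tag among all tags of the gland differed by less than its spread. The tag took 46.8 and 41.3 of every 10000 tags in the control glands and 58.3 and 42.8 in the double-mutant glands. The difference of the means was 6.45 with a pooled SD of 8.2. It turned to -12.1 as raw tags per cell and to -0.184 as a centred log ratio. The median per cell was 30.2 and 25 in the control and 14.9 and 12.6 in the double-mutant glands. Mean centred log ratios were -0.488 and -0.612 against -0.72 and -0.749. By these 2 measures each double-mutant gland lay below each control gland. The part of the mix of cell types in this was not tested. A design of 2 against 2 glands cannot reach an exact permutation p below 0.33. Within endothelial-like cells, the medians were 917 (27 cells) and 663 (11 cells) in the control and 290 (28 cells) and 142 (27 cells) in the double-mutant glands. Their Ly6c RNA was 6640 and 6380 CPM against 4470 and 5040 CPM. Tag and RNA were both lower in each double-mutant gland than in each control gland. In Drop-seq endothelial-like cells, the Ly6c1 difference was 0.21 on the log2 scale, in the other direction, and did not pass. The total of antibody tags was 5399891 in control replicate 1 and between 1212923 and 1864783 in the other 3 glands.

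The Ly6A/E tag was compared with Ly6a in the same way. Its medians in cells with and without a Ly6a UMI were 342 and 42.8 in control replicate 1, 151 and 40.9 in control replicate 2, 188 and 31.8 in double-mutant replicate 1 and 130 and 35.9 in double-mutant replicate 2. Cells with and without a Ly6e UMI differed less in this tag, with medians of 77.6 and 41.2, 60.2 and 40.3, 58.9 and 32.1 and 46.3 and 38.9 in the same order of glands. By population it was higher in endothelial-like (271), fibroblast-like (172) and luminal Clu+ cells (157), which had 3010, 1490 and 1740 CPM of Ly6a. Ig-producing cells again had a low tag beside their RNA, with 1230 CPM of Ly6a and a median of 44.3, close to the 48.5 of acinar-like cells.

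The other members of the Ly6 and urokinase receptor family that passed the test went in both directions. Of 35 further family genes, 26 were in the tables and 6 had enough UMIs for the whole-gland genotype fit. Plaur, the urokinase receptor, rose in double-mutant glands by 1.51 ± 0.32 (log2, SE, edgeR, adjusted p = 0.00285). Of the 6, 3 fell, where 7.64% of all genes did. They were Ly6g6e (-1.20, adjusted p = 0.00352), Ly6g6d (-0.84, adjusted p = 0.0339) and the complement inhibitor Cd59a (-0.73, adjusted p = 0.0456). The calls of Ly6g6d and Cd59a were lost without the 2 libraries whose sex genes went against their labels (edgeR, adjusted p = 0.0726 and 0.0883) and with library size only (-0.46 and -0.15, adjusted p = 0.0794 and 0.615). The call of Cd59a was also lost with batch as a term (adjusted p = 0.0935) and over all deposited barcodes (adjusted p = 0.0647). The other 2, Gpihbp1, which carries lipoprotein lipase in capillaries, and Ly6k, differed by 0.88 (adjusted p = 0.102) and -1.11 (adjusted p = 0.0588). The median of the 6 was -0.785, against 0.00995 over all genes and 0.804 over the 5 members.

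Because Ly6e and Ly6a are known interferon targets, a list of 20 other interferon-stimulated genes was read in the same fit. Of 17 tested, 16 rose and 0 fell in double-mutant glands, with a median log2 difference of 1.47. Of all genes, 14% rose and 7.64% fell there. The largest were Ifi44 (2.41 ± 0.29, SE, edgeR, adjusted p = 8.86e-06), Irf7 (2.19, adjusted p = 3.27e-06) and Usp18 (2.18, adjusted p = 1.01e-05). Irf7 is a transcription factor of the interferon response and Usp18 dampens interferon signalling. At P40, 6 of 20 rose (1.31% of all genes) and at P90 11 of 20 (5.46% of all genes). In CITE-seq 6 of 19 rose (9.24% of all genes). Within populations, 1 of 3 tested rose in basal-like cells (5.64% of all genes rose there) and 1 of 5 in macrophage-like cells (5.8% of all genes). In endothelial-like cells 0 of 7 rose (0% of all genes). Ly6e, at 0.05, was not among the genes that rose with this list in the whole-gland fit.

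The bulk libraries gave levels per exon length of each gene, which is not the length of a single transcript. It was 1677 bases for Ly6c1 and 2740 for Ly6c2, against 844 and 822 in Ly6c1-201 and Ly6c2-201. The order of the members therefore depends on the length used. TPM is here a read count scaled by this exon length and the library total. In the control P70 and the double-mutant P100 gland, Ly6e had 34.4 and 17.2 TPM, Ly6a 28.9 and 28.8 and Ly6d 12 and 6.24. Ly6c1 had 3.91 and 3.93 TPM and Ly6c2 0.77 and 1.76 TPM. Ly6e and Ly6a were thus the most abundant members per exon length in the control gland and Ly6c2 the least. Ly6c2 had 83 reads in the control and 188 in the double-mutant library, and Ly6c1 had 258 and 257. Of the 2 members called higher in Drop-seq glands, Ly6c2 was also higher in the double-mutant bulk library and Ly6a was not. Ly6d, called higher in CITE-seq, was lower in that library. With 1 gland of each genotype and different ages, these differences have no replicate check, and genotype and age cannot be told apart.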

How the data were processed

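Mouse salivary gland single cells were measured by Drop-seq and CITE-seq and whole glands by bulk RNA-seq. The authors aligned reads to mm10 with GENCODE annotation plus Cre and EYFP sequences (STAR, Drop-seq tools), counted UMIs per gene and cell, counted antibody tags with CITEseq-count, and counted bulk reads with featureCounts. All deposited values used here are raw counts. Whether the antibody tag counts are UMIs or reads is not given in the sources used here, and no doublet caller was run.

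Cells with at least 100 genes and under 15% mitochondrial UMIs were kept (CITE-seq: under 2500 genes), as in the study's methods. Per those methods, human HEK cells were added to the CITE-seq samples. The authors removed them, and doublets with them, after mapping to a combined human and mouse reference. Whether the deposited tables still hold such cells is not given in the sources used here, and no step here removed them. The cluster of 191 cells found only in CITE-seq held 48 and 91 cells in the control and 32 and 20 in the double-mutant glands. Whether these cells are human was not tested. Cells were clustered (2000 variable genes, 30 principal components, leidenalg 0.10.2, resolution 1) without Ly6 family genes. A cluster was named if at least 3 markers of a fixed list were 2-fold higher and in 10% of its cells, and the name rests on this re-clustering. Such a cluster was still left unnamed where another list held more of its 10 leading genes. The same held where its cells had few UMIs and no marker led, or where it was found only in CITE-seq. For sub-clusters of basal cells the markers had to be 1.5-fold higher. Sums of UMIs, over a whole gland or over those of its populations that had 10 or more cells, were tested with edgeR 4.0.16 (glmQLFit, TMM, filterByExpr, Benjamini-Hochberg over all genes, threshold 0.05). DESeq2 1.42.0 and other settings were run as alternatives. The edgeR genotype fits over the whole gland and within endothelial-like cells were also run on simulated counts in which 200 genes had been changed. Samples were grouped by the labels. UMI totals limit precision, and 3 UMIs were taken as the limit that a count of 0 allows. The labels do not state that the glands of a group came from separate animals, so p-values measure the spread between glands.

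The members and lists were chosen with earlier results of these data known. Besides the 5 members, named genes were family genes past the threshold in the whole-gland genotype fit, the 3 interferon genes with the largest change past it, and the 3 genes most like each member over populations. Gpihbp1 and Ly6k were named after their values were seen.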

Additional observations from a re-analysis of the deposited data

Results flagged for a closer look

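Of 36 groups of 4 to 10 glands examined for a gland far from the others (Dixon's criterion at 95%), 3 had one, and chance alone flags about 1 in 20 groups. Ly6a in double-mutant P90 replicate 5 was 564 CPM, with a gap of 0.6 of the group's range to its neighbour. That library is one whose sex-linked RNAs went against its label. Ly6e in double-mutant P40 replicate 2 was 1060 CPM, with a gap of 0.721 of the range. Ly6e within T/NK-like cells of control P90 replicate 5 was 2280 CPM, with a gap of 0.591 of the range. What set these glands apart was not tested.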

How the results depend on the processing

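The rises of Ly6a over both stages and within basal-like cells, of Ly6c2 over both stages and at P40, and of Ly6c2 in CITE-seq kept their direction and passed under every alternative that gave a value. Ly6a within basal-like cells ranged from 1.76 (adjusted p = 0.0431, cells gated by markers) to 2.76. The counts of all genes called moved more. Over both stages, 1894 became 4752 with library size only, 2917 without a filter on low counts, 776 when every gland was thinned to the shallowest, and 1207 without the 2 libraries whose sex genes went against the label. At P40, 150 became 706 (DESeq2), 2186 (library size only) and 1313 (no filter). At P90, 892 became 1457 (DESeq2), 1809 (no filter) and 337 (without those 2 libraries). The test of genotype by stage called 8 genes by DESeq2, 189 with no filter, 2 without double-mutant P90 replicate 4 and 0 without the 2 libraries. With no filter, Ly6c2 passed there (adjusted p = 0.00022). Ly6a at P40 passed with library size only (adjusted p = 0.0423), no filter (0.0125) and the replicate block (0.0213), and Ly6e passed with library size only at P40, in CITE-seq and in macrophage-like cells (0.0439, 0.0278 and 0.0411). With no filter, Ly6c1 passed as lower at P90 than at P40 in control (-0.93) and double-mutant glands (-0.94). Stage in control glands gave 869 (DESeq2), 369 (library size only) and 1523 (no filter), and in double-mutant glands 37 (DESeq2) and 627 (no filter).

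Within basal-like cells, 63 calls became 122 (DESeq2), 166 (library size only), 297 (no filter), 10 (gated by markers), 41 without double-mutant P90 replicate 4, 38 without the 2 libraries and 12 without the basal tumor sub-cluster. Macrophage-like cells had 703 (library size only), 397 (no filter) and 36 (gated by markers) against 124. Endothelial-like cells had 4 (DESeq2), 1 (at least 20 cells per gland) and 44 (no filter) against 0. T/NK-like cells had 7 (DESeq2), 10 (at least 20 cells) and 8 (no filter) against 0. CITE-seq had 644 (DESeq2), 3107 (library size only) and 2356 (no filter) against 1379, and 380 to 1050 when 1 library was left out. The Ly6C tag by genotype, 6.45 as a share of the gland's tags, turned to -12.1 as raw tags per cell and to -0.184 as a centred log ratio.

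Reversals concerned differences that did not pass in the main fit. Among them, Ly6e over both stages and in macrophage-like cells passed as higher with library size only. Ly6a turned to -0.0819 (gated by markers) and -0.0128 (without the 2 libraries) within endothelial-like cells, and to -0.0542 (no filter) for stage in controls. Ly6c1 turned to -0.0079 within marker-gated endothelial-like cells, and for genotype by stage to 0.0344 (DESeq2), 0.00056 (DESeq2 size factors) and 0.0469 (without the 2 libraries). Ly6d by genotype and stage turned to 0.0388 (DESeq2), 0.0361 (size factors), 0.0678 (library size only) and 0.22 (without the 2 libraries). Ly6d by stage turned to 0.13 in controls and 0.19 in double-mutant glands with library size only, and to 0.15 in the latter without the 2 libraries. Ly6e turned to 0.29 at P90 and 0.10 in endothelial-like cells with library size only, and over both stages to -0.0864 (batch as a term) and -0.0243 (no filter). In macrophage-like cells it turned to -0.0014 (DESeq2), -0.21 (at least 20 cells) and -0.017 (resolution 0.7). The causes were not tested.

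Replicate numbers did not pair the glands: in 25 same-numbered pairs the correlation of deviations ran from -0.324 to 0.461, with 8 over 0.1. With the replicate number as a block, the calls over both stages were 2903, at P40 986 and at P90 1832, Ly6c1 over both stages passed, and Ly6d by stage in controls (0.0491) and Ly6e in macrophage-like cells (-0.0126) changed sign. Fits in fibroblast-like cells (2 control glands) and in marker-gated T/NK-like cells (0 control glands) were not run. The fits without the basal tumor sub-cluster and without the cluster found only in CITE-seq were chosen after seeing the data.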
